A study of Mus musculus with 4 samples.

Results

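The matrix metalloproteinases (MMPs) and their tissue inhibitors (TIMPs) were followed through the exon table of the Mitf knock-in experiment. The set held 10 genes, the MMPs Mmp2, Mmp3, Mmp10, Mmp11, Mmp13, Mmp14 and Mmp19 and the inhibitors Timp1, Timp2 and Timp3, out of 22835 genes with listed exons. They were chosen as genes of the family, with earlier results of these data known, and 17 other MMP and TIMP genes were read apart. Every listed exon assigned to the 10 genes by GENCODE release M21 was taken, which gave 98 exon identifiers at 97 positions. Each of the 10 genes exceeded 10 RPKM (read density per kb of exon, relative to sequencing depth) in at least 1 library.

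The study asked whether Mitf, the master regulator of the melanocyte lineage, can redirect mouse embryonic fibroblasts (MEFs) toward melanocytes. RNA was sequenced from 1 library for each of 4 conditions. The library labelled MEF came from wild-type MEFs at passage 3. Dox (-) and Dox (+) came from Mitf knock-in MEFs at passage 5, without doxycycline (Dox) and after 6 days with it. Both knock-in cultures carried the M2rtTA transactivator at the ROSA26 locus and a Dox-responsive M isoform of Mitf beside Col1a1. They came from chimeric embryos made with 1 correctly targeted embryonic stem cell clone, whose mCherry and puromycin resistance markers served to separate transgenic cells from host cells. The library of primary melanocytes was not analysed here. Genotype and passage differ between MEF and both knock-in libraries and cannot be told apart. Between MEF and Dox (+), doxycycline differs as well. No wild-type library with Dox was sequenced, so Dox itself and the induction of Mitf cannot be told apart either.

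MMPs are zinc-dependent proteases that cut collagens, proteoglycans and other proteins of the extracellular matrix. Most are secreted as inactive proenzymes, and removal of the propeptide by plasmin, by furin-like convertases or by another MMP makes them active. TIMPs bind the active site of MMPs and block it, and TIMP2 also takes part with MMP14 at the cell surface in the activation of MMP2. Fibroblasts are a main source of both families in connective tissue, and several MMP genes are known to respond to the AP-1 transcription factor.

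The level of a gene was the RPKM of its highest exon, as in the study's methods, unless a mean over its exons is named. The recovered depth was 44000000 to 45000000 reads, and 3 reads on an exon of 150 bp, taken as the floor, were 0.444 to 0.455 RPKM. Mitf, the induced gene, had 1.52 RPKM in MEF, 30.8 in Dox (-) and 1544 in Dox (+). The median gene above 10 RPKM was 0.23 higher on the log2 scale in Dox (+) than in Dox (-), and 62.6% of these genes were higher, so differences are also given relative to that shift. All 11 macrophage markers read (Csf1r, Lyz2, Cd68, Adgre1, Laptm5, Aif1, Tyrobp, Fcer1g, C1qa, Itgam and Ptprc) were above 10 RPKM in Dox (-), where their summed level was 17564 RPKM, against 59.0 in MEF and 629 in Dox (+), and none was at 0 in any library. In bulk RNA, fewer cells of a type and less RNA per cell cannot be told apart. Of 10 fibroblast markers, 9 in MEF and 10 in each knock-in library were above 10 RPKM, and their summed level was 54913 RPKM in MEF, 71850 in Dox (-) and 44230 in Dox (+). More than 4-fold lower in Dox (+) than in Dox (-) were 4 of them, Col1a1, Col1a2, Col3a1 and Lum, beside 5.41% of all genes. More than 4-fold higher were 0, beside 1.64%, and the median log2 difference of the 10 was -1.01. Thy1 (2014 RPKM in Dox (-), 3608 in Dox (+)) and Vim (12301.5 and 24344.5) were higher in Dox (+). Of 8 melanocyte markers, 0, 1 and 4 were above 10 RPKM in MEF, Dox (-) and Dox (+). Mitf itself, the induced gene, is among the 8 and was the 1 that passed in Dox (-). The others that passed in Dox (+) were Tyrp1, Mlana and Pmel. Tyr, Dct, Sox10 and Kit were below 10 RPKM in every library, and Sox10 was lower in Dox (+) (1.66 RPKM) than in Dox (-) (6.69). Endothelial markers summed to at most 17.6 RPKM and epithelial markers to at most 61.2 RPKM. There was 1 library per condition, so no test between conditions was possible, and the 95% intervals of ratios cover counting error only.

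From Dox (-) to Dox (+) the set did not move as a block. The inhibitor Timp1 and the proteases Mmp10 and Mmp11 were at least 2-fold higher in Dox (+), Timp3 was more than 2-fold lower, and the most abundant proteases Mmp2 and Mmp14 were lower by less than that. The study's methods kept exons above 10 RPKM and more than 4-fold different between MEFs and melanocytes. With these limits applied here to the highest exon of a gene, between Dox (+) and Dox (-), 0 of the 10 genes were higher, where 1.64% of all 13307 genes were, and 0 were lower, where 5.41% of all genes were. At 2-fold, 3 were higher (Mmp10, Mmp11 and Timp1) beside 10.8% of all genes, and 1 was lower (Timp3) beside 11.1%. Mmp11 and Timp1 lay at the limit, and after rescaling by the shift of all genes, a setting chosen after the values were seen, the split turned to 1 higher (Mmp10) beside 6.46% of all genes and 3 lower (Mmp2, Mmp14 and Timp3) beside 13.9%. The median log2 difference of the 10 genes was -0.07, and -0.29 relative to the median of all genes. Their median difference regardless of sign was 0.80 on the log2 scale, against 0.52 over all genes. Mmp2, Mmp13, Mmp14, Mmp19 and Timp3 were highest in Dox (-), as were both the macrophage marker sum and the fibroblast marker sum. The part of either cell type in their levels was not tested.

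Against the library labelled MEF the picture was different. All 10 genes were at a higher level in Dox (-) than in MEF, with a median log2 difference of 1.07 where the median of all genes was 0.01. By the 4-fold threshold 4 were higher (Mmp3, Mmp10, Mmp13 and Timp3), beside 8.26% of all 13234 genes, and 0 were lower, beside 1.21%. At 2-fold Mmp19 joined them, so that 5 were higher, beside 17.3% of all genes, and 0 were lower, beside 7.93%. In Dox (+) the same 4 genes passed against MEF, beside 6.55% of 12941 genes, and 0 were lower, beside 3.4%. The call of Timp3 was lost, leaving 3 genes, after rescaling and with the mean of exons, settings for which the share of all genes was not taken. At 2-fold 7 were higher in Dox (+) than in MEF, beside 20.2% of all genes, and 0 were lower, beside 8.98%. In direction alone, 9 of the 10 were higher, with a median log2 difference of 1.52 where all genes had 0.27. The comparisons share libraries, so their counts are not independent. The 10 genes were chosen with earlier results of these data known, and not every gene of the family was higher in Dox (-) than in MEF. Of the 17 other MMP and TIMP genes, 7 passed 10 RPKM in Dox (-) or MEF. Among these, 5 were more than 4-fold higher in Dox (-), beside 8.26% of all genes. Lower in Dox (-) were Mmp16 (62.0 RPKM in MEF, 17.05 in Dox (-)) and Mmp23 (344 and 267). The rise was not particular to this set. The median log2 difference from MEF to Dox (-) was 1.41 for 10 fibroblast markers, 1.18 for 11 activators and cell-surface regulators and 0.97 for 14 related proteases. More than 4-fold higher were 3, 4 and 5 of them, beside 8.26% of all genes, and 0 were lower, beside 1.21%. The 2 epithelial markers above 10 RPKM were lower, with a median of -3.44.

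**Figure D1:**
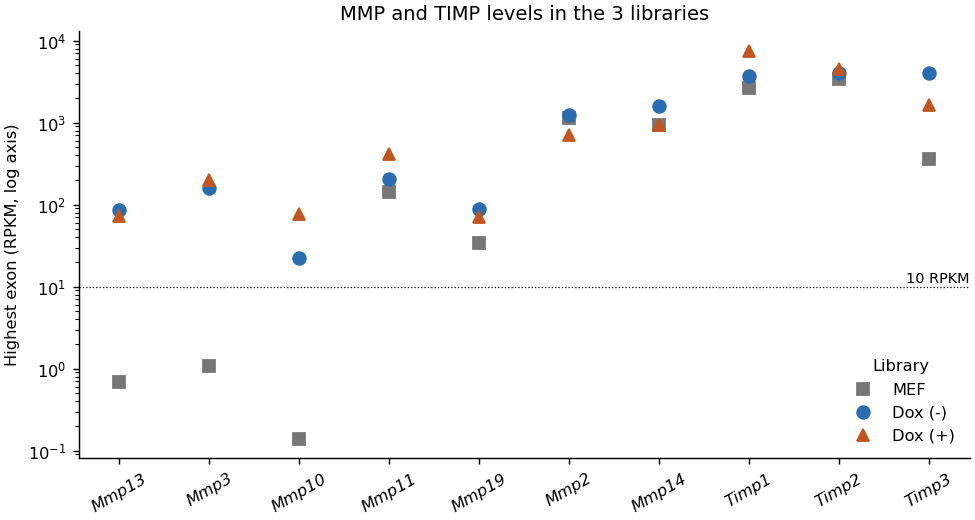
Level of each gene in the 3 libraries, as the RPKM of its highest exon on a log axis, with 1 point per library and a dotted line at 10 RPKM. Mmp13, Mmp3 and Mmp10 lie below the line in MEF and above it in both knock-in libraries, Timp1 is highest in Dox (+) and Timp3 is highest in Dox (-).

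The collagenase and the stromelysins showed the widest range. Mmp13 encodes collagenase 3, which cuts fibrillar collagen, and lies on chromosome 9 from 7272514 to 7283331 on the plus strand of mm10. It had 0.686 RPKM in MEF, 87.2 in Dox (-) and 72.3 in Dox (+). Both knock-in libraries were thus far above MEF and close to each other. On exon 9 there were 2 reads in MEF against 408 in Dox (-), a ratio of 204 (56.1 to 1690), and 331 in Dox (+), a ratio of 169 (46.5 to 1403). Between the knock-in libraries the same exon was 1.21-fold lower in Dox (+) (1.04 to 1.40), and all 10 exons were lower, by 1.20-fold to 1.57-fold.

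Mmp3 encodes stromelysin 1, which has a broad range of matrix substrates and activates other proMMPs. It lies on the same strand of chromosome 9 from 7445822 to 7455975. Its level was 1.07 RPKM in MEF, 157.7 in Dox (-) and 201 in Dox (+). Again the knock-in libraries stood together and apart from MEF. Exon 9 had 5 reads in MEF, 738 in Dox (-) and 921 in Dox (+), which gave ratios to MEF of 148 (63.0 to 456) and 188 (80.4 to 582). Dox (+) was 1.28-fold above Dox (-) (1.16 to 1.41), with all 10 exons higher, and 0.12 above the shift of all genes on the log2 scale.

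Mmp10 encodes stromelysin 2, the closest relative of Mmp3 here, and lies downstream of it from 7502352 to 7510240. It had 0.139 RPKM in MEF, 22.1 in Dox (-) and 76.7 in Dox (+). Over 9 exons with whole reads this was 1 read in MEF, 683 in Dox (-) and 2764 in Dox (+), where a read that spans 2 exons counts in both. On exon 3, with 0 reads in MEF, Dox (-) was at least 49.3-fold and Dox (+) at least 171-fold higher than the floor of 3 reads in MEF. Dox (+) had 503 reads on it and Dox (-) 148, a ratio of 3.48 (2.89 to 4.20), the largest difference upward from Dox (-) among the 10 genes. Relative to all genes the log2 difference was 1.53. All 10 exons of Mmp10 were higher in Dox (+).

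The excess of Dox (+) was not even along Mmp10. Exons 1 to 3 had ratios of 2.92 to 3.48, and exons 4 to 9 had ratios of 4.67 to 6.84. The interval of exon 1 was 2.40 to 3.57 and that of exon 4 was 4.83 to 8.63. In Dox (-) the mean level of exons 1 to 3 was 18.3 RPKM and that of exons 4 to 9 was 6.34 RPKM, a ratio of 2.89, while in Dox (+) it was 60.4 against 36.3 RPKM, a ratio of 1.66. With exons 1 to 3 left out, Mmp10 passed the 4-fold threshold between Dox (-) and Dox (+), and with its highest exon it did not.

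Part of this stretch is nearly the same in Mmp3, so exon 3 of both genes are shown, with the differing bases in capitals. Each is 149 bases of coding sequence on the plus strand, at chr9:7503481-7503629 for Mmp10 and chr9:7447268-7447416 for Mmp3 in mm10, taken from the GENCODE M21 transcripts.
Mmp10 exon 3: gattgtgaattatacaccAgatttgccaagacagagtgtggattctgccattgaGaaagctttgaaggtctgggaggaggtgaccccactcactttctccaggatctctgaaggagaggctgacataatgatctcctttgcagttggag
Mmp3 exon 3: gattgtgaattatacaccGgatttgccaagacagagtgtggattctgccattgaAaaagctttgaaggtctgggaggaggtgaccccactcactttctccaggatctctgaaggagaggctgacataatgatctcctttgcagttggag
Counted from the 5′ end of the exon, they differ by A19G and G55A (Mmp10 base, position, Mmp3 base), and 147 of the 149 bases are identical. Identity was 92.2% for exon 2 and 98.7% for exon 3, and 47.9% to 80% for the other 8 exons. The longest identical run was 86 bases in exon 2 and 94 in exon 3, and at most 23 elsewhere. Reads of these 2 exons may be split between both genes by the aligner, and their levels are uncertain. Exon 1 of Mmp10, where the longest run shared with Mmp3 is 9 bases, had 21.01 RPKM in Dox (-), beside 22.1 for exon 3 and 10.1 for exon 4. In Dox (+) exons 1, 3 and 4 had 61.4, 76.7 and 64.4 RPKM. A read that spans exons 1 and 2 counts in both, and the split of reads between the genes was not tested. With exons 2 and 3 of both genes left out, the log2 difference of Mmp10 between Dox (+) and Dox (-) was 1.57, and from exons 4 to 10 it was 2.56.

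**Figure D2:**
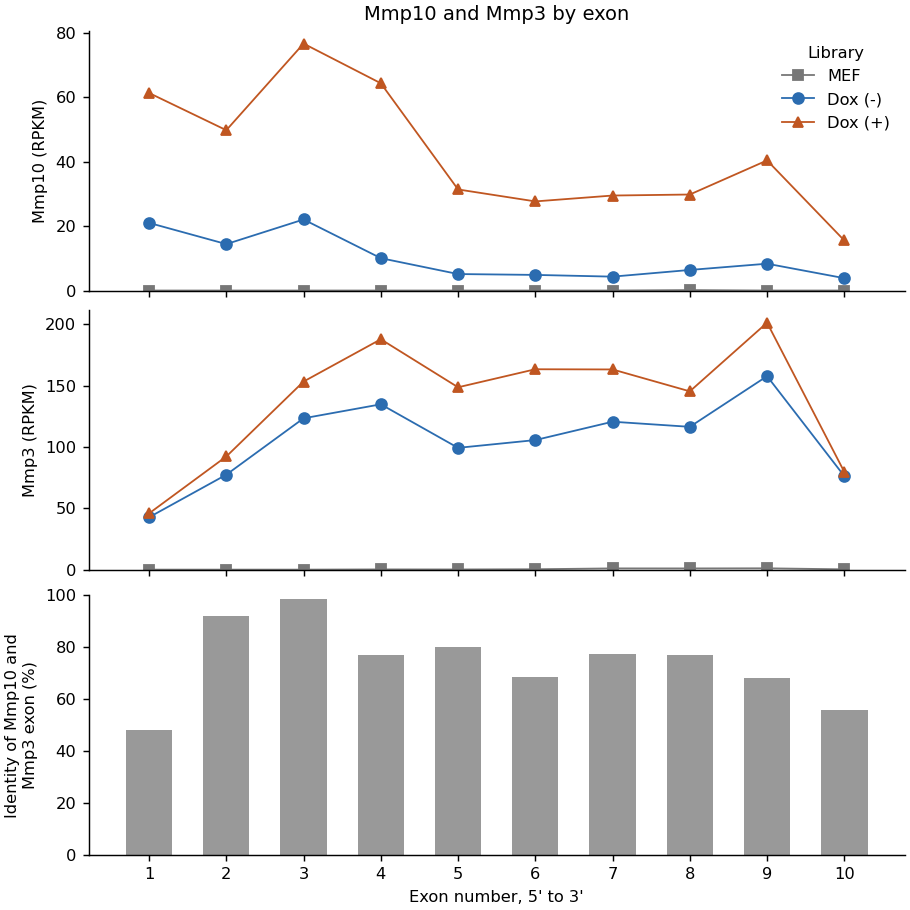
RPKM of each exon of Mmp10 (top) and Mmp3 (middle) in the 3 libraries, by exon number from 5′ to 3′, and the share of identical bases between the exons of the same number (bottom, in percent). The lines join exons of 1 library. Exons 1 to 3 of Mmp10 stand above exons 5 to 10 in both knock-in libraries, exon 4 is near them in Dox (+) and not in Dox (-), and exons 2 and 3 are 92.2% and 98.7% identical to those of Mmp3.

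Mmp13, Mmp3 and Mmp10 belong to a cluster of 10 MMP genes that spans 427 kb of chromosome 9. Between Mmp3 and Mmp10 lies Mmp1a, an interstitial collagenase gene that M21 annotates as a polymorphic pseudogene, 8.17 kb from the end of Mmp3 and 25.5 kb from the start of Mmp10. Mmp1a was listed at 0 RPKM in MEF, 117 in Dox (-) and 294 in Dox (+), and its ratio from Dox (-) to Dox (+) on 1 exon was 2.52 (2.03 to 3.14). Mmp12, the macrophage elastase, had 2.78 RPKM in MEF, 28.4 in Dox (-) and 11.4 in Dox (+). Mmp1b, Mmp8, Mmp27, Mmp20 and Mmp7 were at 0 in MEF and at no more than 1.55 RPKM in Dox (-) and 0.791 in Dox (+). The genes on either side of the cluster did not share the pattern. Dcun1d5 had 411 RPKM in MEF, 297 in Dox (-) and 307 in Dox (+), and Tmem123 had 173, 193 and 163 RPKM.

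**Figure D3:**
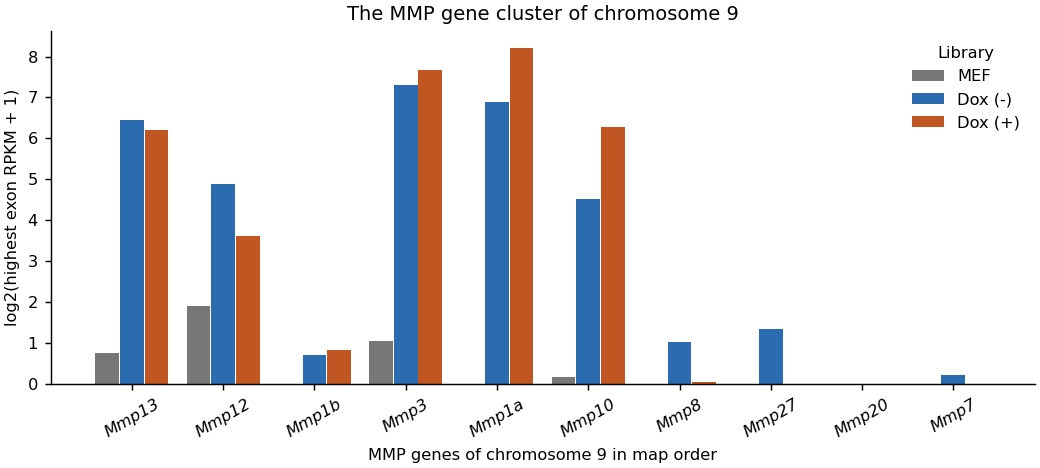
Level of the 10 MMP genes of the chromosome 9 cluster in map order, as log2 of the highest exon RPKM plus 1, with 1 bar per library and bars from 0. Mmp13, Mmp3, Mmp1a and Mmp10 are high in both knock-in libraries and near 0 in MEF, while Mmp1b, Mmp8, Mmp27, Mmp20 and Mmp7 stay low throughout.

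Since Mmp3, Mmp10 and Mmp13 were low in MEF and high in both knock-in libraries, the 250 bases before their starts are shown. They come from RefSeq (GRCm38.p6), all on the plus strand, at chr9:7445572-7445821 for Mmp3, chr9:7502092-7502341 for Mmp10 and chr9:7272264-7272513 for Mmp13. Capitals mark matches to the AP-1 motif TGAGTCA on either strand, and to the E-box CATGTG, a sequence to which MITF is known to bind.
Mmp3 promoter: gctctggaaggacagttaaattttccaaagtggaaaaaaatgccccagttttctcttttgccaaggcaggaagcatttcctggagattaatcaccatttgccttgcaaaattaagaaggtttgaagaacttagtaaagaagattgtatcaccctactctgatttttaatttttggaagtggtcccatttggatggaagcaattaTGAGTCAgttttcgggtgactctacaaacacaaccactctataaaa
Mmp10 promoter: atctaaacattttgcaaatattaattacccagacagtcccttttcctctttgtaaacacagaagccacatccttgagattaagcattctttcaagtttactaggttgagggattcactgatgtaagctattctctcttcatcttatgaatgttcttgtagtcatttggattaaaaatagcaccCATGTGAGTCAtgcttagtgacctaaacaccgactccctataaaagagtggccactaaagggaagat
Mmp13 promoter: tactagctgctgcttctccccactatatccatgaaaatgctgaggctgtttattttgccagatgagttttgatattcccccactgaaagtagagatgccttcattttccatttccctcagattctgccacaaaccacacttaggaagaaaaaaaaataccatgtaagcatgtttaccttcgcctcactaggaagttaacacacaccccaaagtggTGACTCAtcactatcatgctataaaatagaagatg
Each of the 3 holds 1 AP-1 match, 46 to 40 bases before the start in Mmp3, 63 to 57 in Mmp10 and, as TGACTCA, 35 to 29 in Mmp13. Mmp10 alone of the 3 holds CATGTG, 67 to 62 bases before the start, and it overlaps the AP-1 match. Of the 10 genes 8 had an entry in the promoter table, the exceptions being Mmp2 and Mmp19, and the letters TGAGTCA were not in the windows of Mmp11, Mmp14, Timp1, Timp2 and Timp3. The window of Mmp1a also held TGAGTCA, 73 to 67 bases before its start, and CATGTG on both strands, 185 to 178 bases before it. Of 32851 promoter windows of the same length, 4.46% held TGAGTCA and 12.3% held CATGTG on either strand. The E-box CACGTG, the PEA3 motif AGGAAG and the letters TATAAA were searched as well. CACGTG was in none of the windows of the 8 genes and Mmp1a, and in 6.02% of all windows. AGGAAG was in the windows of Mmp3, Mmp13, Mmp14, Timp1 and Timp3, and in 29.5% of all windows. TATAAA was in those of Mmp3, Mmp10, Mmp13 and Mmp1a, and in 12.4% of all windows. A match is a description of the letters and does not show binding.

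The gelatinase and the membrane-bound MMP were the most abundant proteases of the set and were lower in Dox (+). Mmp2 encodes gelatinase A, which degrades denatured and basement membrane collagen, on chromosome 8 from 92827291 to 92853420. Its level was 1134 RPKM in MEF, 1245 in Dox (-) and 707 in Dox (+). MEF and Dox (-) were close, and Dox (+) was the lowest of the 3. On its highest exon Dox (+) was 1.76-fold lower than Dox (-) (1.69 to 1.83), and 0 of its 13 exons were higher. Relative to all genes the log2 difference was -1.04.

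Mmp14 encodes MT1-MMP, the membrane-anchored protease that activates proMMP2, on chromosome 14 from 54431612 to 54445364. It had 928 RPKM in MEF, 1598 in Dox (-) and 933 in Dox (+). Dox (-) was thus the high library. Dox (+) was 1.71-fold lower than Dox (-) (1.66 to 1.77) and stood at 1.005 times MEF (0.968 to 1.04) on 1 exon, although 8 of its 10 exons were above MEF. The 10 exons were lower than in Dox (-) by 1.47-fold to 1.75-fold.

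The remaining MMPs moved apart. Mmp11 encodes stromelysin 3, which furin activates inside the cell, on the minus strand of chromosome 10 from 75923222 to 75936496. It had 144 RPKM in MEF, 205 in Dox (-) and 412 in Dox (+). The order was the same on every non-overlapping exon, 8 of 8. On a short exon of 53 bp Dox (+) was 2.004-fold above Dox (-) (1.80 to 2.24) and 2.86-fold above MEF (2.53 to 3.25). Mmp19 encodes a secreted MMP of basement membrane substrates, on chromosome 10 from 128790910 to 128800824. It had 33.7 RPKM in MEF, 87.5 in Dox (-) and 71.6 in Dox (+). Dox (-) was 2.60-fold above MEF (2.20 to 3.08), and Dox (+) was 1.22-fold lower than Dox (-) (1.07 to 1.40), with 0 of 9 exons higher. The last exon of Mmp19 overlaps Tmem198b on the other strand, which had 53.5 to 64.6 RPKM, and without strand the reads there cannot be told apart. The exon used for the ratios does not overlap it.

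The 3 inhibitors went 3 ways. Timp1 encodes a secreted inhibitor of most soluble MMPs, on the X chromosome from 20870166 to 20874735. It had 2608 RPKM in MEF, 3742 in Dox (-) and 7543 in Dox (+). Its highest exon in Dox (+) was above that of 99.6% of the 13587 genes that passed 10 RPKM in some library. Dox (+) had 26551 reads on it and Dox (-) 13470, a ratio of 2.02 (1.97 to 2.06), and the ratios of all 6 non-overlapping exons lay between 1.95 and 2.05. Timp1 lies within an intron of Syn1, on the other strand, with no exon in common.

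Timp2, whose product binds proMMP2, lies on the minus strand of chromosome 11 from 118301069 to 118355740. It had 3386 RPKM in MEF, 4075 in Dox (-) and 4474 in Dox (+). The 3 libraries were close. Its ratio from Dox (-) to Dox (+) was 1.10 (1.08 to 1.12), below the 1.17-fold shift of the median gene, so that its direction turned when the libraries were rescaled, with a log2 difference of -0.09. The direction also differed within the gene. The short form of the last exon, all of it coding, had a ratio of 1.18, and the 2632 noncoding bases beyond it had 1434 RPKM in Dox (-) and 1208 in Dox (+), a ratio of 0.842.

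Timp3 encodes the inhibitor that stays bound to the matrix and also blocks several ADAM proteases. It lies on chromosome 10 from 86300372 to 86349506. It had 362 RPKM in MEF, 4020 in Dox (-) and 1649 in Dox (+). Dox (-) was the high library and MEF the low one, with Dox (+) between them. Dox (-) was 11.1-fold above MEF (10.3 to 11.9) and Dox (+) 4.55-fold above MEF (4.21 to 4.92), on an exon of 49 bp. Dox (+) was 2.44-fold lower than Dox (-) (2.34 to 2.53), the largest difference downward among the 10 genes. All 6 non-overlapping exons were lower, the first by 1.60-fold and the last, which is mostly noncoding, by 2.90-fold. The last exon overlaps Syn3 on the other strand, which had at most 1.48 RPKM.

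**Figure D4:**
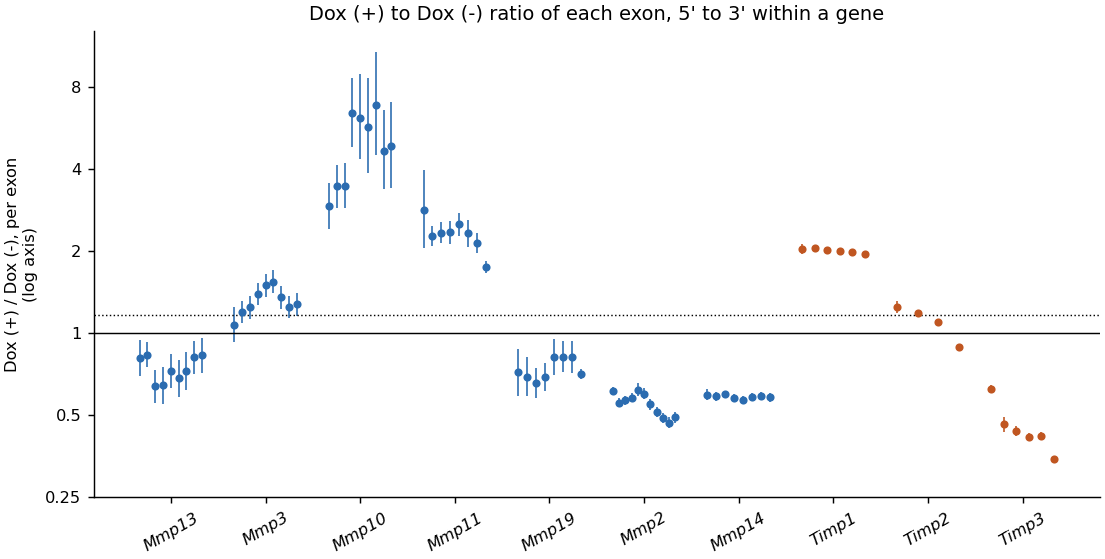
Ratio of Dox (+) to Dox (-) for each non-overlapping exon with whole-read counts, in 5′ to 3′ order within a gene, on a log axis, with 95% counting intervals (blue, MMPs and orange, TIMPs). The solid line marks 1 and the dotted line the 1.17-fold shift of the median gene. Mmp10, Mmp11 and Timp1 lie above both lines on every exon shown, Mmp13, Mmp19, Mmp2, Mmp14 and Timp3 lie below both, and Timp2 crosses them.

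The ratio also drifted along genes in general. Over 5118 genes with at least 8 exons of 50 reads, the log2 ratio of Dox (+) to Dox (-) over the 3′ exons minus that over the 5′ exons (the last and the first part of equal size out of 3) had a median of -0.24, with the central 90% of genes from -0.66 to 0.18. Mmp2 (-0.21) and Mmp11 (-0.39) lay within that range, as did Mmp14 (-0.02), Mmp13 (0.01), Mmp3 (0.10) and Mmp19 (0.11). The part of this drift in the lower ratio of the last exons of Timp2 and Timp3 was not tested.

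The balance of inhibitors to proteases was described with length-weighted mean RPKM over non-overlapping exons. Reads that touch an exon are counted in full, so this mean reads higher for genes of many short exons, and the lengths of the last exon of Mmp2, Mmp3, Mmp10, Mmp13 and Mmp14 and of the first exon of Mmp2, Mmp14 and Mmp19, where no whole reads were recovered, may differ from those the authors used. In Dox (-) the order was Timp1 (2033), Timp2 (1374), Timp3 (1215.5), Mmp14 (817), Mmp2 (727), Mmp3 (96.9), Mmp11 (63.8), Mmp19 (56.4), Mmp13 (51.7) and Mmp10 (9.59). Whether neighbours in that order differ beyond replicate spread is unknown. By the highest exon, Timp1 was the lowest of the TIMPs in Dox (-). In Dox (+) Timp1 stood first at 4068 and Mmp11 at 134 came above Mmp3 at 124. The 3 TIMPs summed to 2434 RPKM in MEF, 4623 in Dox (-) and 5788 in Dox (+), and the 7 MMPs to 1127, 1823 and 1240. The TIMP sum was therefore 2.16 times the MMP sum in MEF, 2.54 times in Dox (-) and 4.67 times in Dox (+). These are transcript levels and not amounts of protein. The sums hold only the genes of the set, so the ratios are not those of the whole family. Mmp23, which is not in the set, had a mean of 170 RPKM in MEF, 142 in Dox (-) and 85.6 in Dox (+).

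The makeup of the inhibitor pool differed as well. Timp1 made up 56.6% of the TIMP sum in MEF, 44.0% in Dox (-) and 70.3% in Dox (+). Timp3 made up 5.85%, 26.3% and 7.66%. These shares depend on the measure. By the highest exon, Timp2 stood above Timp1 in MEF (3386 and 2608 RPKM). In Dox (-) Timp1 was then the lowest, at 3742 RPKM against 4075 for Timp2 and 4020 for Timp3. The means of Timp2 and Timp3 rest mostly on their long last exons (2828 and 3802 bp), which are mostly noncoding. Mmp2 and Mmp14 together made up most of the MMP sum in each library, with Mmp2 at 54.9% in MEF, 39.9% in Dox (-) and 30.8% in Dox (+), and Mmp14 at 39.1%, 44.8% and 38.9%. The sum of Mmp3, Mmp10 and Mmp13 was 0.484 RPKM in MEF, 158 in Dox (-) and 201 in Dox (+).

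**Figure D5:**
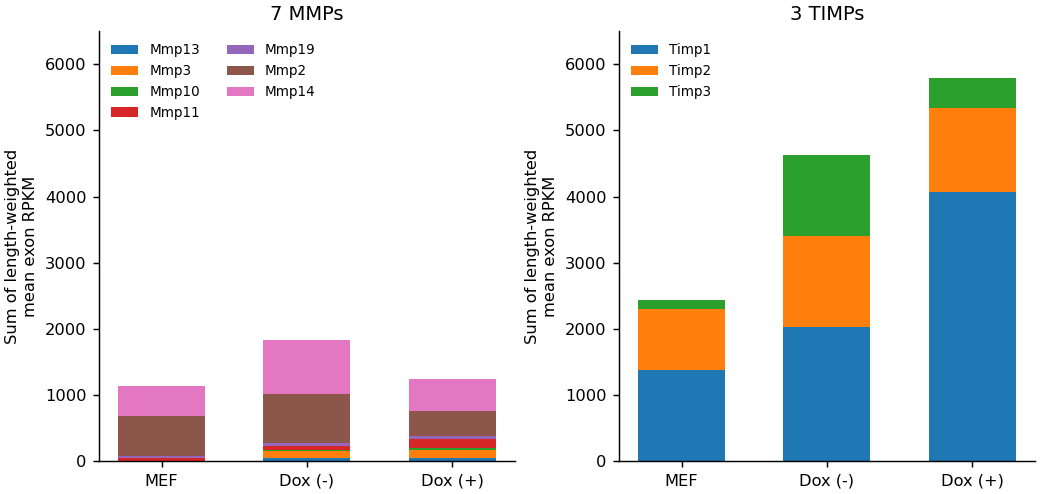
Length-weighted mean exon RPKM of the 7 MMPs (left) and the 3 TIMPs (right), stacked to their sum, in the 3 libraries, on axes of the same range from 0. The MMP sum is highest in Dox (-), at 1823, and the TIMP sum is highest in Dox (+), at 5788, where Timp1 makes up 70.3% of it.

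Of the 17 other MMP and TIMP genes, 7 exceeded 10 RPKM in some library. From Dox (-) to Dox (+), 0 were more than 4-fold higher and 1 was more than 4-fold lower, beside 1.64% and 5.41% of all genes, and their median log2 difference was -0.91. The gene past 4-fold was Mmp9, gelatinase B, with 0.317 RPKM in MEF, 27.1 in Dox (-) and 4.81 in Dox (+). At 2-fold Mmp1a was higher, and Mmp9, Mmp12 and Mmp15 were lower, beside 10.8% and 11.1% of all genes. Mmp15 had 1.92, 13.0 and 4.06 RPKM in MEF, Dox (-) and Dox (+). Mmp16 had 62.0, 17.05 and 8.58 RPKM, Mmp17 had 1.33, 12.3 and 12.05, and Mmp23 had 344, 267 and 146. Macrophages are known to make Mmp9 and Mmp12, and both genes were highest in Dox (-), as was the macrophage marker sum given above. The part of macrophage RNA in these values was not tested.

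Activators and cell-surface regulators were read from a list of 12 genes, of which 11 exceeded 10 RPKM. From Dox (-) to Dox (+), 0 were more than 4-fold higher and 1 was more than 4-fold lower, beside 1.64% and 5.41% of all genes, and the median log2 difference was -0.24. Plau, the urokinase that makes plasmin, had 202 RPKM in MEF, 435 in Dox (-) and 1053 in Dox (+), a ratio of 2.42 (2.20 to 2.66) between the knock-in libraries. Serpine2, an inhibitor of serine proteases, had 318, 2357 and 1053 RPKM. It was higher in both knock-in libraries than in MEF and lower in Dox (+) than in Dox (-). Plg, the gene of plasminogen itself, was at 0 in all 3 libraries. Furin, the convertase that activates Mmp11 and Mmp14, had 109, 257 and 390.5 RPKM, in the same order as Mmp11. The convertase Pcsk5 had 10.98, 54.2 and 8.56 RPKM and was the gene past 4-fold. Reck, a membrane-anchored MMP inhibitor, had 49.0, 112 and 79.9 RPKM. Bsg, an inducer of MMPs, had 3884, 2941 and 4818. Plat had 226, 513 and 520 RPKM, Plaur 183, 181 and 265, Pcsk6 37.0, 39.3 and 23.9, and Tfpi2 0, 12.3 and 10.3.

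The genes whose pattern over the 3 libraries was most like that of Mmp10, by distance between centred log2(RPKM + 1) values among 11767 genes, were Syngr1 (0.187), Ccl8 (0.199), Lpl (0.389), Hspb7 (0.393) and Ptgds (0.457). Ccl8, a chemokine, had 0.198 RPKM in MEF, 25.4 in Dox (-) and 72.2 in Dox (+). For Timp3 they were Tshz2 (0.0477), Ctla2a (0.0922), Ssh2 (0.0940), and Ugt1a8 and Ugt1a5 (0.0998 each), which share exons. Ctla2a had 27.5, 344 and 136 RPKM. With 3 libraries many genes share any simple order of levels.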

How the data were processed

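Poly(A) RNA was sequenced from 1 library per condition. Per the labels and the study's methods, the authors aligned the reads to mm10 with TopHat 2.0.10, counted them per exon with bedtools and deposited RPKM values. bedtools counts a read on every exon that it touches, so short exons read high per length, and use of strand was not stated. How the listed exons were chosen was not stated.

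A column was read only where its name matched a library. This left 1 value column unused, so the primary melanocytes were not analysed here and the planned comparisons with them were not run. Exons were assigned to genes with GENCODE release M21. Of 234718 exons listed, 6586 had no match. Whole reads were recovered by multiplying RPKM by exon length and by a library depth, and at a tolerance of 0.02 reads they came out whole for 96.9% to 97.2% of the values below 200 reads. No count test was run, since there was 1 library per condition. Of the 97 member positions, 8 gave no whole reads and are given in RPKM only.

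Genes counted as different above 10 RPKM in at least 1 of 2 libraries and more than 4-fold. Log2 differences used a pseudocount of 1 RPKM and understate changes of low genes. Ratios of reads on 1 exon, the highest over the 2 libraries, carry exact conditional intervals at 95%. Differences relative to all genes subtract the median over genes above 10 RPKM. Alternatives changed the thresholds, the pseudocount, the exons used and the scaling of the libraries. The genes named in the text are the 10 genes of the set, the genes above 10 RPKM of 3 lists (other family members, activators, related proteases), and the 5 genes nearest in pattern to Mmp10 and to Timp3. Cell type markers were read from further lists, of which only some genes are named. The values of 1 gene of the activator list are not reported here. The other genes of the chromosome 9 cluster, its flanking genes, overlapping genes and single list genes below 10 RPKM were added after their values were seen. The members and lists were chosen with earlier results of these data known. The steps were tested on simulated data. Python 3.11.15, NumPy 2.4.6, pandas 2.3.3, SciPy 1.17.1, Biopython 1.88 and matplotlib 3.10.9 were used.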

Additional observations from a re-analysis of the deposited data

How the results depend on the processing

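From Dox (-) to Dox (+), the 4-fold rule gave 0 genes higher and 0 lower. A 2-fold threshold gave 3 higher (Mmp10, Mmp11 and Timp1) and 1 lower (Timp3), and rescaled as well, a combination chosen after seeing the data, 1 higher (Mmp10) and 3 lower (Mmp2, Mmp14 and Timp3). The length-weighted mean of exons gave 1 higher (Mmp10). Exons 4 to 10 of Mmp10, an alternative chosen after seeing the data, also gave 1 higher. For the mean of exons, other choices of exons and rescaling at 4-fold, the share of all genes was not taken. Those counts therefore have no such share beside them. Lowering or dropping the 10 RPKM threshold, adding 1 RPKM before the ratio, choosing 1 exon for both libraries and rescaling by the median ratio left both counts at 0, as did leaving out exons 2 and 3 of Mmp3 and Mmp10, also chosen after seeing the data. The median log2 difference of the 10 genes was -0.28 with the mean of exons and -0.29 after rescaling, against -0.07. The difference of Timp2 turned from 0.13 to -0.11 with the mean of exons and to -0.091 after rescaling. From MEF to Dox (-), the median was 0.93 with the mean of exons, and the count of 4 genes became 3 without Mmp10. From MEF to Dox (+), a 2-fold threshold gave 7 genes (with Mmp11, Mmp19 and Timp1) beside 20.2% of all genes, rescaling gave a median of 1.25, and both rescaling and the mean of exons left 3 genes, without Timp3. The other log2 values for single genes between Dox (-) and Dox (+) were set against the distance from the middle to the end of their counting interval. Of them 40 moved by no more than that, 11 by more, and the 2 of Timp2 turned. Those from choosing 1 exon could not move, since the highest exon of each gene was the same in both libraries. Those from another pseudocount move little at these levels. The cause of these shifts was not tested. No paired analysis was possible because there was 1 library per condition, and for the same reason no library could be left out. The comparisons planned with primary melanocytes were not run. In MEF, ratios of Mmp3, Mmp10 and Mmp13 rest on 0 to 5 reads per exon.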

Other observations

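Of 15 related matrix proteases, 14 exceeded 10 RPKM in some library, and most were lower in Dox (+) than in Dox (-). Their median log2 difference was -0.83, with 0 genes more than 4-fold higher and 2 more than 4-fold lower, and 0 higher and 5 lower at 2-fold. Beside them, 1.64% of all genes were more than 4-fold higher and 5.41% more than 4-fold lower. At 2-fold these shares were 10.8% and 11.1%. Adam8, a membrane protease of leukocytes, had 16.6 RPKM in MEF, 382 in Dox (-) and 33.9 in Dox (+), an 11.3-fold lower count on 1 exon in Dox (+) (8.92 to 14.5). It was high in the library where the macrophage marker sum was high, and the part of macrophage RNA in it was not tested. Adamts12 had 28.5, 48.5 and 11.5 RPKM. Adam17, the sheddase that TIMP3 is known to block, had 121, 161 and 74.3 RPKM, so that both it and Timp3 were lower in Dox (+) than in Dox (-). Adamts2, a procollagen N-proteinase, had 50.0, 209 and 93.1 RPKM, and Adamts9 had 1.40, 21.1 and 9.42. Ctsk, the cysteine protease of osteoclasts, went the other way, with 18.2, 259 and 450 RPKM. Adam9 (447, 549 and 326 RPKM), Adam10 (246, 443 and 293), Adam12 (33.7, 185 and 96.0) and Adam19 (74.9, 256 and 135) were also highest in Dox (-). Adam15 (154, 331 and 346 RPKM), Adamts1 (109, 102 and 77.1), Adamts4 (27.2, 30.6 and 26.8) and Adamts5 (146, 65.5 and 72.6) completed the list.

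The few reads of Mmp3 in the library labelled MEF were not spread along the gene. None of the 22 lay on exons 1 to 3, and exons 7, 8 and 9 held 6, 7 and 5 of them. In Dox (-) exons 1 to 3 held 359, 853 and 827 reads and exons 7 to 9 held 727, 838 and 738. At 22 reads this is a description of 1 library.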
